A study of Mus musculus with 20 samples.

Results

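The genes described here are those that the nuclear receptor PPARA switches on in the fasted heart: the receptor gene Ppara and its coactivator Ppargc1a, the target genes Pdk4, Ucp3, Ucp2, Acot1, Acot2, Cpt1b and Fabp3. They are 9 genes named from this pathway, and the list was drawn up with earlier results of these data known. Of the 9, 7 had at least 1 probe set that the array annotation pairs with that gene symbol alone, 16 probe sets in all, out of 18194 such genes on the array. These 7 genes are Pdk4, Ucp3, Acot1, Acot2, Fabp3, Ppara and Ppargc1a, and all 16 of their probe sets passed the filter on dim signal, the closest being the dimmer Ucp3 probe set at a mean signal of 84.2 against a filter of 81.8. Ucp2 was listed with none of the probe sets and Cpt1b with several symbols at once, so both are not analysed here, nor is a probe set shared by Acot1 and Acot2.

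The study asked how 4 statins, which lower cholesterol by blocking HMG-CoA reductase, affect gene expression in the heart of normal mice. Left ventricles came from 20 male C57BL/6J mice, 1 array per mouse and 4 mice per group. Treatment lasted 4 weeks and began after 2 weeks of acclimation in mice delivered at the age of 6 weeks. All groups carried no labelled transgene or mutation and had free access to standard chow, and the labels name no fasting period and no time of day for collection. Control mice ate chow alone. The other groups ate chow mixed with powdered tablets of pitavastatin calcium (4.5 mg/kg/day), pravastatin sodium (21.0 mg/kg/day), rosuvastatin calcium (10.9 mg/kg/day) or atorvastatin calcium hydrate (11.4 mg/kg/day). Because the doses differed, statins are shown side by side and no pair of them is tested. A moderated F test over all 5 groups is given as well, and it also takes in differences between statins at these unlike doses.

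As background, PPARA is a receptor that binds fatty acids, pairs with RXR and sits on paired copies of the motif AGGTCA, where PPARGC1A helps it to raise transcription. In fasting, fatty acids released from fat tissue reach the heart, and genes that favour their use over glucose are raised. Pdk4 is a standard marker of this switch, because its kinase shuts the pyruvate dehydrogenase complex and so keeps glucose carbon out of the mitochondrion.

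Upstream sequence was examined for the 8 members that RefSeq start sites cover, 250 bases before each start in the mouse build GRCm38.p6, to show where the receptor's motif does and does not occur. The letters AGGTCA, searched on both strands, were found upstream of 1 of the 8, Ucp3, which held 2 matches on the gene's own strand, at -149 to -144 and at -44 to -39 from the start. For comparison, 14% of 32851 RefSeq promoters of this length held at least 1 match. The paired site, AGGTCA repeated after 1 base of any kind, was in 0 of the 8 and in 0.0335% of all promoters, and GTAAACA, the core of the FOXO site, in 0 of the 8 and in 3.17%; the single motif is part of the paired site, and a missing match says only that these letters are not in this window. The sequences, in the direction of transcription, are those of Ucp3 (chr7:100472741-100472990, plus strand) with its matches in capitals, Pdk4 (chr6:5496279-5496528, minus strand), and the neighbouring genes Acot1 (chr12:84009252-84009501, plus strand) and Acot2 (chr12:83987611-83987860, plus strand), which hold none of the 3 motifs.
Ucp3: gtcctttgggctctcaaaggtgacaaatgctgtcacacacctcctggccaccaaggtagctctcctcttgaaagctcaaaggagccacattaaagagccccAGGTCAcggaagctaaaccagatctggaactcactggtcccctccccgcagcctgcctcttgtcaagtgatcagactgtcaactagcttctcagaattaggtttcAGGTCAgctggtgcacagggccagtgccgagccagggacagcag
Pdk4: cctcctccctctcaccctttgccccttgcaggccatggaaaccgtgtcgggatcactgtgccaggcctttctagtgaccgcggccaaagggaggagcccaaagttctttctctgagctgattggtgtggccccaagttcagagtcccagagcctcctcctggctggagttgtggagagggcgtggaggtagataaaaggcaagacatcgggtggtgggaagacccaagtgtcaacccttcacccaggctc
Acot1: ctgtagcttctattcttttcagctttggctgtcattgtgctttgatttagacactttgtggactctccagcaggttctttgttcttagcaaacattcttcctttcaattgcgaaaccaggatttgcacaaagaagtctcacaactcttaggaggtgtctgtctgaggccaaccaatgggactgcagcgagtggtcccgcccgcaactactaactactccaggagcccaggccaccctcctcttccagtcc
Acot2: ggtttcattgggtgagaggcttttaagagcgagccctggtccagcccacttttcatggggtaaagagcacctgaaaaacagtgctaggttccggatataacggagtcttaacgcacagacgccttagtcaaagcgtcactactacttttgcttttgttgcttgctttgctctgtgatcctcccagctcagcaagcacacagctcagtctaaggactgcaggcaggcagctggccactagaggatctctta
Acot2 and Acot1 lie 15624 bases apart on chromosome 12, and Ucp3 and Ucp2 lie 6904 bases apart on chromosome 7.

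No member gene was called different from control with any statin. Values below are the log2 of the signal plus 16 for the brightest probe set of each gene, and a group is given as mean ± SD over 4 mice. Limma, with Benjamini-Hochberg adjustment across the 22518 probe sets tested, called 0 of the 16 member probe sets with each of the 4 statins and with their mean, and the share of all probe sets called was 0% in each. At an unadjusted p under 0.05 pitavastatin gave 0 members (1.93% of all probe sets), pravastatin 0 (3.93%), rosuvastatin 1 (11%), atorvastatin 0 (4.57%) and the mean of the statins 0 (3.05%). The exact permutation test of 4 against 4 mice called 0 as well, but it could not have called any. Its p-values come in coarse steps at 4 mice a group, and the smallest step is too large to pass the adjustment here. Its result therefore says nothing about the members. In all 64 combinations of 16 probe sets and 4 statins the statin mice overlapped the control mice, where the share of all tested probe sets with no overlap was 1.69% for pitavastatin, 2.94% for pravastatin, 4.53% for rosuvastatin and 1.37% for atorvastatin.

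The receptor gene had the smallest spread within groups of the 7 brightest probe sets. Ppara read 8.69, 9.29, 8.91 and 8.92 in the control mice. It read 8.91, 9.03, 9.0 and 8.97 with pitavastatin, 8.98, 9.08, 8.99 and 9.21 with pravastatin, 9.28, 9.0, 9.37 and 8.79 with rosuvastatin, and 8.97, 8.81, 9.0 and 8.86 with atorvastatin. Every group lay inside or across the control range, and the group means spanned 0.20 against a pooled SD within groups of 0.18. The log2 fold change ran from -0.04 with atorvastatin (95% interval -0.31 to 0.23) to 0.16 with rosuvastatin (-0.12 to 0.43). The 2 dimmer Ppara probe sets had group means that spanned 0.18 and 0.24, against pooled SDs of 0.21 and 0.28.

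Ppargc1a, the coactivator that links PPARA to mitochondrial and fatty acid oxidation genes, was as even. Control mice read 12.99, 12.79, 12.59 and 12.78, pitavastatin mice 12.94, 12.51, 12.56 and 12.48, pravastatin mice 12.81, 12.87, 12.53 and 12.72, rosuvastatin mice 12.96, 12.76, 12.31 and 12.82, and atorvastatin mice 13.07, 12.79, 12.67 and 12.84. The lowest mouse was rosuvastatin 3 and the highest atorvastatin 1, and all 5 groups overlapped. Its largest difference was with pitavastatin, -0.17 (SE 0.14, limma adjusted p = 1.00). Among its 5 probe sets, 4 followed each other from mouse to mouse, with within-group correlations of 0.62 to 0.88. The fifth and dimmest, with a mean signal of 734, correlated with these at 0.008 to 0.20 and was the one member probe set with an unadjusted p under 0.05 in a comparison with control. It was at 9.58 ± 0.18 in control and 9.38 ± 0.11 in rosuvastatin mice, a log2 difference of -0.20 (SE 0.10, limma adjusted p = 0.452). The other 4 probe sets of the gene did not reach an unadjusted p under 0.05.

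**Figure D1:**
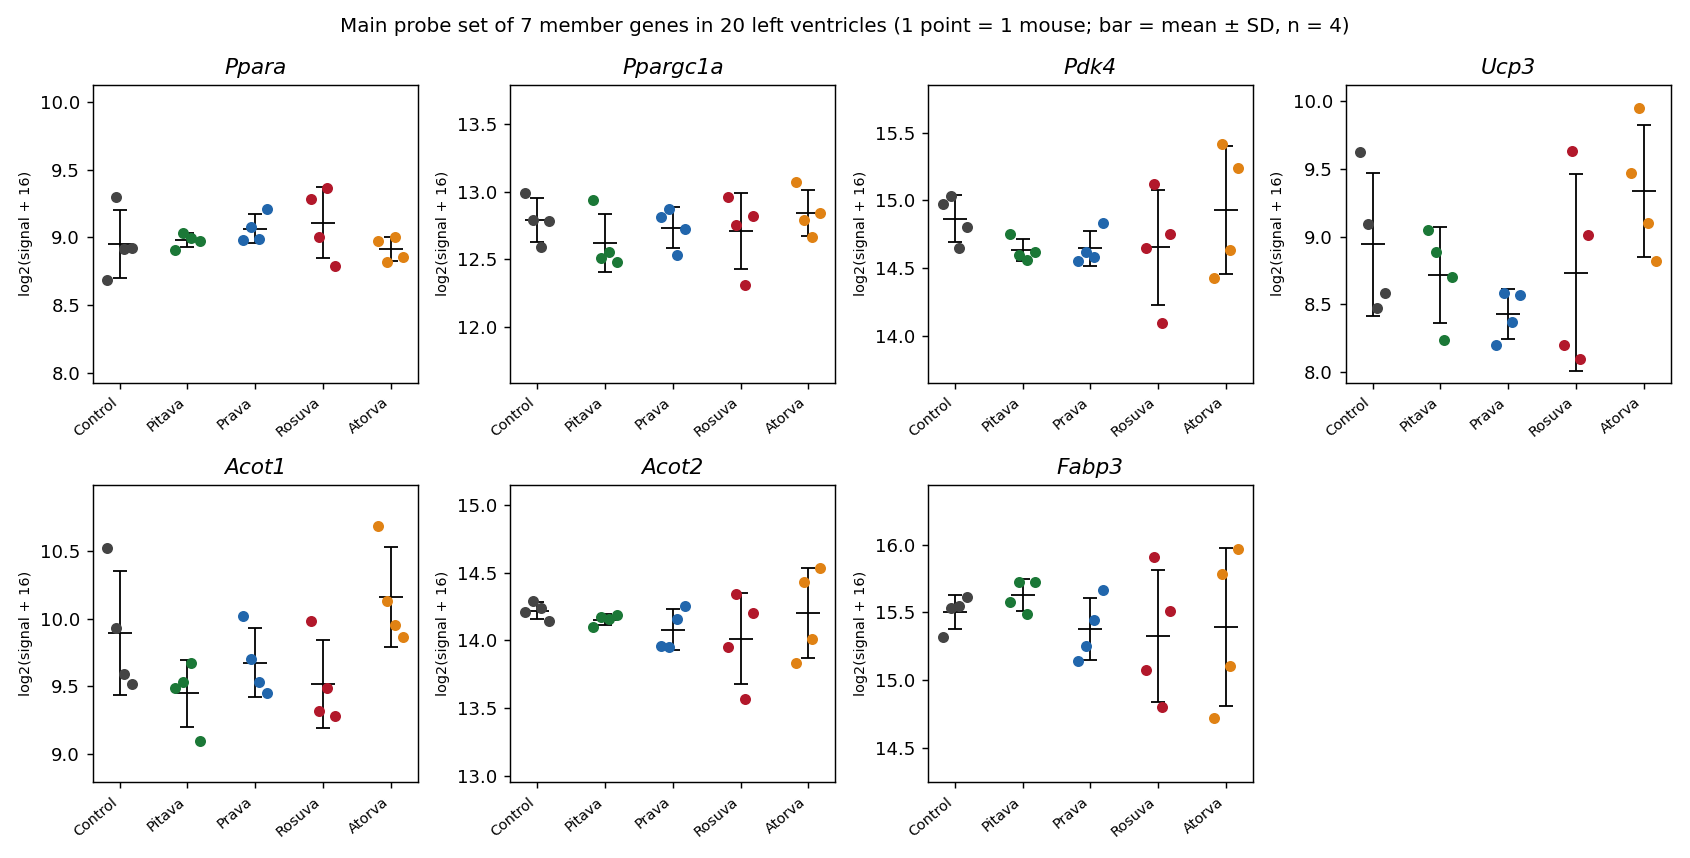
Log2(signal + 16) of the brightest probe set of 7 genes in each mouse (points) with the group mean ± SD (bars, n = 4), by treatment; each panel spans the same number of log2 units. Ucp3 and Acot1 have the widest distances between group means, 0.91 and 0.71, and in every panel the statin mice overlap the control mice.

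Pdk4 carries the pathway's clearest readout in muscle. Its control values were 14.98, 15.03, 14.65 and 14.80. Pitavastatin mice were at 14.75, 14.60, 14.56 and 14.62, and pravastatin mice at 14.55, 14.62, 14.58 and 14.84, so most mice of both groups lay just under the lowest control. Rosuvastatin mice (14.65, 15.12, 14.09 and 14.75) and atorvastatin mice (14.43, 15.41, 14.63 and 15.24) spread past the controls on both sides, with SDs of 0.42 and 0.47 against 0.17 in control. The log2 fold change of pitavastatin mice was -0.23 (95% interval -0.65 to 0.18), that of pravastatin mice -0.22 (-0.63 to 0.20) and that of rosuvastatin mice -0.21 (-0.63 to 0.20), while atorvastatin mice were at 0.06 (-0.35 to 0.48). No interval lay apart from 0, and in linear terms the estimates were 0.851, 0.859, 0.864 and 1.04 of control. The rosuvastatin estimate turned to 0.17 when each array was centred on its median, where the median of all tested probe sets was itself 0.36. The atorvastatin estimate turned to -0.10 without atorvastatin 2.

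Ucp3, a mitochondrial carrier raised by fatty acids in muscle, varied most of the 7. Over the 20 mice its signal differed 3.78-fold between the lowest and the highest, and its SD within groups exceeded that of 84.1% of tested probe sets. Control mice read 9.62, 9.09, 8.47 and 8.58. Pravastatin mice were low and close together at 8.20, 8.58, 8.37 and 8.57, and atorvastatin mice were high at 9.47, 9.95, 9.10 and 8.82. Pitavastatin mice lay between, at 9.04, 8.89, 8.23 and 8.70, and rosuvastatin mice were split, at 8.20, 9.63, 8.09 and 9.01.

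The group means of Ucp3 were 9.33 ± 0.49 with atorvastatin, 8.94 ± 0.53 in control, 8.73 ± 0.73 with rosuvastatin, 8.72 ± 0.35 with pitavastatin and 8.43 ± 0.18 with pravastatin (SD, n = 4), and each neighbouring pair in that order differed by less than the pooled SD within groups, 0.49. Against control the log2 fold change was 0.39 with atorvastatin (95% interval -0.27 to 1.05) and -0.51 with pravastatin (-1.17 to 0.14), neither of which passed limma (adjusted p = 0.964 and 0.992). The smallest adjusted p of the pravastatin estimate over all alternative settings and omissions was 0.713, and the estimate stayed between -0.67 and -0.29. The dimmer Ucp3 probe set had its highest mean with atorvastatin and its lowest with pravastatin too, 6.98 ± 0.35 and 6.33 ± 0.49, against 6.61 ± 0.48 in control (SD, n = 4). The correlation of both probe sets within groups was 0.473.

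**Figure D2:**
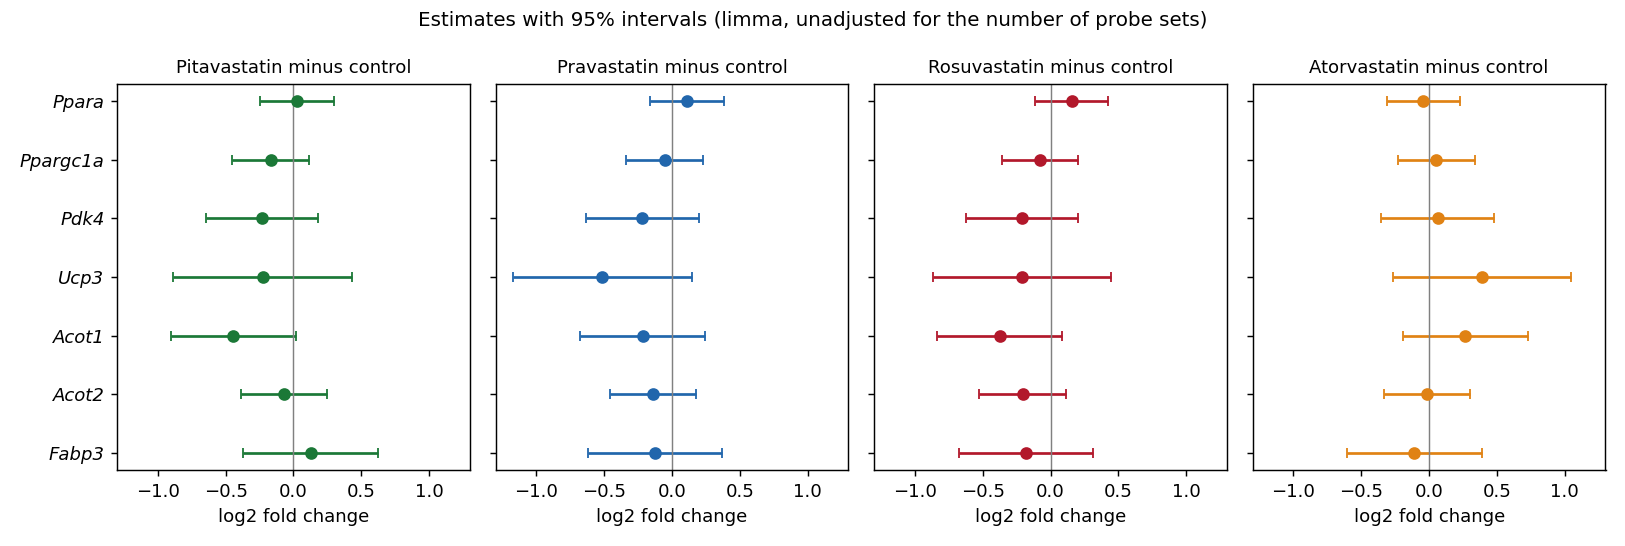
Log2 fold change against control (x axis) for the brightest probe set of 7 genes (y axis) with each statin; points are limma estimates and bars their 95% intervals, unadjusted for the number of probe sets. Every bar crosses 0, and those of Ucp3 are the widest, as at -1.17 to 0.14 with pravastatin.

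The acyl-CoA thioesterases Acot1 (in the cytosol) and Acot2 (in mitochondria) split fatty acyl-CoA into free fatty acid and coenzyme A. Acot1 read 10.52, 9.93, 9.59 and 9.52 in control mice. It read 9.49, 9.53, 9.67 and 9.09 with pitavastatin, 10.02, 9.70, 9.53 and 9.45 with pravastatin, 9.98, 9.32, 9.49 and 9.28 with rosuvastatin, and 10.69, 10.13, 9.95 and 9.87 with atorvastatin. Of the 4 pitavastatin mice 2, of the 4 pravastatin mice 1 and of the 4 rosuvastatin mice 3 lay below every control, and all atorvastatin mice lay above the lower pair of controls.

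Of the brightest probe sets, that of Acot1 had the smallest p over the 5 groups. The moderated F statistic was 3.49 (limma adjusted p = 0.731), and the group means spanned 0.71, from pitavastatin to atorvastatin, against a pooled SD of 0.34. With the F test limma called 0 member probe sets, where 0.00444% of all probe sets were called, and 2 had an unadjusted p under 0.05 (6.24% of all), Acot1 and the dimmest Ppargc1a probe set. Against control the Acot1 difference was -0.44 with pitavastatin (95% interval -0.91 to 0.02, limma adjusted p = 1.00). It was -0.22, -0.37 and 0.27 with pravastatin, rosuvastatin and atorvastatin (SE 0.22 each). Control 1 was the highest control, and without it the pitavastatin difference was -0.23. Mice numbered 1 lay above and mice numbered 4 below their group mean of Acot1 in all 5 groups. With the replicate number added to the fit, F was 10 and still not called (limma adjusted p = 0.114). In that fit 0.0266% of all probe sets were called.

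For Acot2 the estimate lay below control with each statin, and none was called. Its control mice read 14.21, 14.29, 14.24 and 14.15, with an SD of 0.06, and its pitavastatin mice 14.10, 14.17, 14.16 and 14.19. Pravastatin mice read 13.96, 13.95, 14.16 and 14.25, rosuvastatin mice 13.95, 14.34, 13.57 and 14.20, and atorvastatin mice 13.84, 14.43, 14.01 and 14.54. The last 2 groups had SDs of 0.34 and 0.33, with mice on both sides of the controls, and the log2 fold change ran from -0.21 with rosuvastatin to -0.02 with atorvastatin (SE 0.15). A dimmer Acot2 probe set gave 0.03, -0.02, -0.30 and 0.10 with pitavastatin, pravastatin, rosuvastatin and atorvastatin (SE 0.18). It did not follow the bright one between mice (within-group r = -0.167).

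Fabp3, the fatty acid carrier of the cardiomyocyte cytosol, read 15.32, 15.54, 15.55 and 15.61 in control mice and 15.58, 15.73, 15.49 and 15.73 with pitavastatin. It read 15.14, 15.25, 15.45 and 15.67 with pravastatin, 15.07, 15.91, 14.80 and 15.51 with rosuvastatin, and 14.72, 15.79, 15.10 and 15.97 with atorvastatin. Rosuvastatin 2 and atorvastatin 4 were the highest of the 20 mice and atorvastatin 1 and rosuvastatin 3 the lowest. Its log2 fold changes were 0.13, -0.13, -0.18 and -0.11 with pitavastatin, pravastatin, rosuvastatin and atorvastatin (SE 0.24). A dimmer Fabp3 probe set, at a mean signal of 110, gave -0.34, 0.01, -0.07 and -0.06 in the same order (SE 0.22). Between mice it went only weakly with the bright one (within-group r = 0.153).

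Counted over the 7 genes, more estimates lay below control than above it with 3 of the 4 statins. There were 5 below and 2 above with pitavastatin, 6 and 1 with pravastatin, 6 and 1 with rosuvastatin, and 3 and 4 with atorvastatin. Of all tested probe sets 51%, 55%, 54.1% and 56.1% lay below control in that order. The medians of the 7 genes were -0.17, -0.14, -0.21 and 0.05, beside medians over all tested probe sets of -0.003, -0.02, -0.02 and -0.03. These 4 comparisons share the same control mice, so their signs are not independent of each other. Centring each array on its median moved the median of all probe sets by 0.38 with rosuvastatin, 0.10 with pravastatin, 0.09 with atorvastatin and 0.04 with pitavastatin. The rosuvastatin count then became 7 above and 0 below, with a member median of 0.18 against 0.36 for all probe sets. Without rosuvastatin 3 and atorvastatin 2 the rosuvastatin count was 3 above and 4 below, with a median of -0.006. After quantile normalization 2 lay above and 5 below with each of pitavastatin, pravastatin and rosuvastatin (medians -0.18, -0.08 and -0.10). With atorvastatin 6 then lay above and 1 below.

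Member genes were next compared between single mice of the same group, by correlating values after the group means were removed (20 mice, 21 pairs of genes, two-sided permutation within groups). Over the 20 mice the 3 bright genes Pdk4, Acot2 and Fabp3 rose and fell together, with the widest deviations in rosuvastatin and atorvastatin mice. The correlation was 0.945 for Acot2 with Fabp3 (Spearman rho 0.875, adjusted permutation p = 0.00441), 0.90 for Pdk4 with Acot2 (rho 0.773, adjusted p = 0.0145) and 0.861 for Pdk4 with Fabp3 (rho 0.714, adjusted permutation p = 0.0264 for r and 0.0985 for rho). Acot1 ran against Fabp3, at -0.608 (rho -0.596, adjusted permutation p = 0.0264). Acot1 with Fabp3 no longer passed when the replicate number in the labels was removed with the group means (-0.391, adjusted permutation p = 0.192). Mice numbered 1 were above their group mean for Acot1 and below it for Fabp3 in all 5 groups, and mice numbered 4 the reverse. What the numbers stand for is not given in the sources used here, and their part in these correlations was not tested further. Leaving out the 2 mice farthest from the median of the first gene gave 0.926, 0.865, 0.83 and -0.502. The other 17 pairs did not pass, among them Pdk4 with Ucp3 at 0.580 (adjusted permutation p = 0.18) and the gene neighbours Acot1 with Acot2 at -0.413 (0.344). Ppara passed with none of its targets, its correlations running from -0.43 with Ucp3 to 0.03 with Acot1.

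These pairs moved with the signal of the brightest probe sets. The log2 mean signal of the 200 brightest probe sets that belong to no member, here called the bright end of the array, correlated within groups with Fabp3 at 0.992 (permutation p = 1e-05, the smallest the draws can give), Acot2 at 0.953, Pdk4 at 0.858 and Acot1 at -0.569 (adjusted permutation p = 0.00028, 0.00266, 0.0275 and 0.0442 over 28 relations). It did not pass with Ucp3 (0.335), Ppara (-0.354) or Ppargc1a (0.01). By mean signal Fabp3, Pdk4 and Acot2 were themselves at percentiles 99.996, 99.8 and 99.3 of the non-control probe sets. These genes are thus compared with others of like brightness, and whether the bright end reflects the array or the tissue was not tested. The ratio of 3' to 5' signal of Gapdh, a measure of RNA quality and labelling, correlated with Acot2 at 0.872, Fabp3 at 0.862 and Pdk4 at 0.787 (adjusted permutation p = 0.00665, 0.00665 and 0.0442). The same ratio of Actb passed with no member. It was at 0.530, 0.431 and 0.321 with Acot2, Fabp3 and Pdk4 (adjusted permutation p = 0.291, 0.4 and 0.544). In 3 groups the bright end varied little between mice, with an SD of 0.08 in control, 0.08 with pitavastatin and 0.17 with pravastatin, against 0.40 with rosuvastatin and 0.45 with atorvastatin. In control mice Pdk4 and Fabp3 did not rise and fall together. There Pdk4 deviated from the group mean by 0.11, 0.17, -0.21 and -0.06, and Fabp3 by -0.18, 0.03, 0.04 and 0.11. In pravastatin mice the deviations were -0.10, -0.03, -0.06 and 0.19 beside -0.24, -0.12, 0.07 and 0.29. Relations within a single group of 4 mice were not tested.

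**Figure D3:**
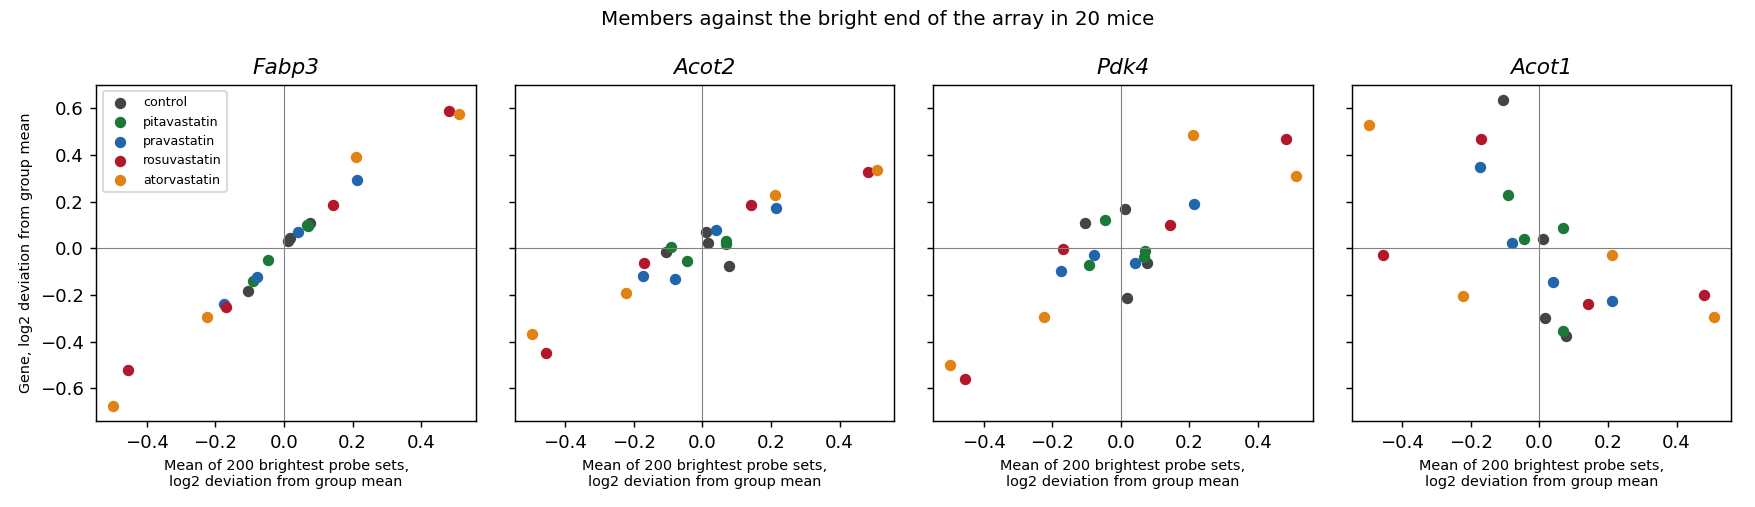
Deviation from the group mean of Fabp3, Acot2, Pdk4 and Acot1 (y axes, log2) against that of the log2 mean of the 200 brightest non-member probe sets (x axis) in 20 mice, coloured by group. Fabp3 lies close to a line (r = 0.992), Acot1 slopes down (r = -0.569), and rosuvastatin and atorvastatin mice fill both ends.

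With the bright end removed together with the group means, a setting added after these values were seen, none of the 21 pairs passed. Acot2 with Fabp3 went from 0.945 to 0.02, Pdk4 with Fabp3 from 0.861 to 0.149, Pdk4 with Acot2 from 0.90 to 0.530 and Acot1 with Fabp3 from -0.608 to -0.409. Fabp3 and Acot2 followed the bright end at 0.992 and 0.953, so its removal left little of either gene to correlate. A loss of the Fabp3 pairs in this setting therefore does not tell why they went together. Pdk4 with Ucp3 stayed at 0.606 (adjusted permutation p = 0.149), and Pdk4 with Acot1 turned from -0.209 to 0.662 (0.0946). With each array centred on its median 6 pairs passed, all positive. Of these, 3 were those of Pdk4, Acot2 and Fabp3 (0.739 to 0.812), and the others were Acot1 with Ppargc1a at 0.872 (adjusted permutation p = 0.00126), Acot1 with Ppara at 0.705 (0.0215) and Ppara with Ppargc1a at 0.684 (0.00719). As measured the latter 3 were at 0.525, 0.03 and -0.308, and with the log2 median signal removed at 0.650, -0.139 and -0.245. Centring subtracts the same value from all genes of an array, which can by itself raise correlations. After quantile normalization 1 pair passed, Pdk4 with Ppargc1a, at 0.753 (adjusted permutation p = 0.0279, against 0.309 as measured), and Pdk4 with Acot1 was at 0.711 (0.0658). Removing both the bright end and the log2 median signal left 3 pairs, none of them among those called as measured: Pdk4 with Acot1 at 0.722, Acot1 with Ppargc1a at 0.659 and Fabp3 with Ppargc1a at -0.682 (adjusted permutation p = 0.0335 each). The number of pairs called also depended on single mice, and it was 1 without rosuvastatin 2 or without rosuvastatin 4 and 2 without pravastatin 1, pravastatin 4, rosuvastatin 3 or atorvastatin 1.

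**Figure D4:**
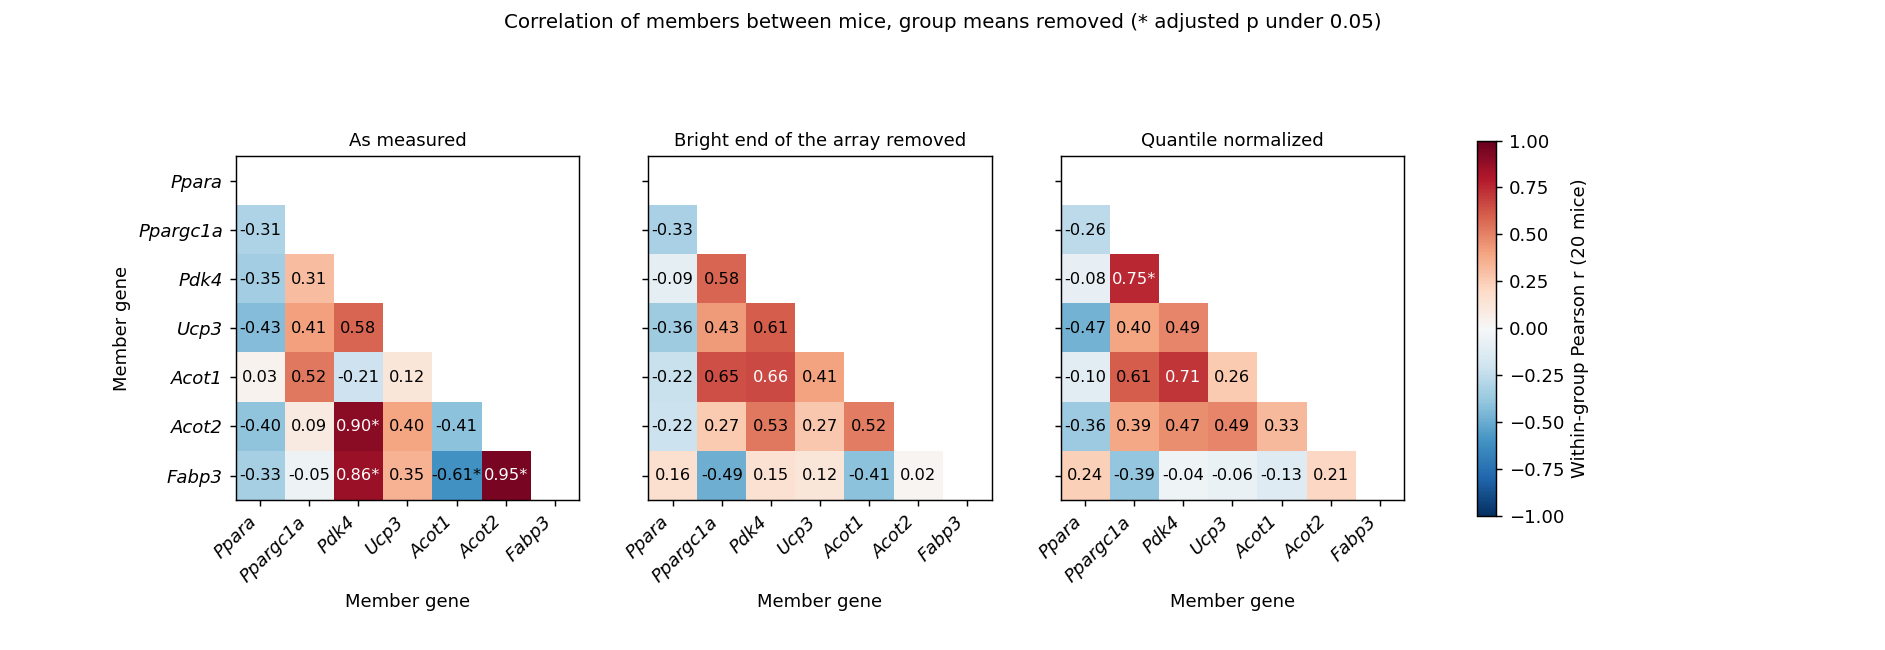
Pearson correlation of 7 genes between 20 mice after removing group means, as measured (left), with the bright end of the array removed as well (middle) and after quantile normalization (right); colour and figures give r, and a star marks an adjusted permutation p under 0.05 over 21 pairs. The 4 stars at left, of which Acot2 with Fabp3 is at 0.95, are gone in the middle, and the star at right is Pdk4 with Ppargc1a. Fabp3 followed the bright end at 0.992, so the middle panel leaves little of that gene to correlate.

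Other genes that PPARA is known to raise were read from a list of 29, of which 21 were tested. Limma called 0 of the 21 with each statin, and at an unadjusted p under 0.05 there were 0 with pitavastatin (1.93% of all probe sets), 3 with pravastatin (all lower; 3.93%), 1 with rosuvastatin (lower; 11%) and 0 with atorvastatin (4.57%). Below control lay 10, 18, 19 and 18 of the 21 in that order, where 51%, 55%, 54.1% and 56.1% of all tested probe sets did. Their median log2 differences were 0.06, -0.10, -0.08 and -0.09, beside -0.003, -0.02, -0.02 and -0.03 over all tested probe sets. Beside them, the 10 cardiomyocyte markers lay above control in 9 of 10 with pitavastatin and below it in 10 of 10 with each other statin (medians 0.12, -0.12, -0.18 and -0.12). Both lists shifted with scaling. After quantile normalization 12, 11, 14 and 13 of the 21 targets and 3, 3, 4 and 8 of the 10 markers lay below control, and after median centring 8, 10, 1 and 9 targets and 1, 7, 0 and 8 markers. In pieces of ventricle, fewer cells of a type and less RNA per cell cannot be told apart.

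Angptl4, a secreted inhibitor of lipoprotein lipase and a target that fatty acids raise strongly, had the smallest p in that list. Its group means were 8.75 ± 0.58 with atorvastatin, 8.40 ± 0.86 in control, 7.65 ± 0.84 with pitavastatin, 7.35 ± 0.53 with rosuvastatin and 6.90 ± 0.47 with pravastatin (SD, n = 4). Control mice ran from 7.30 to 9.17 and pravastatin mice from 6.43 to 7.53, so they overlapped. The differences of -1.50 with pravastatin (SE 0.43) and -1.05 with rosuvastatin (SE 0.43) did not pass limma (adjusted p = 0.783 and 0.452). Plin2, a coat protein of lipid droplets, was at 11.52 ± 0.13 with pravastatin against 11.78 ± 0.20 in control (SD, n = 4; -0.25, limma adjusted p = 0.992).

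Between mice of one group, Ucp3 and Angptl4 went together. Their within-group correlation was 0.802 (Spearman rho 0.881, permutation p = 9e-05, 0.00063 adjusted over the 7 member genes), and it was 0.795 without the 2 mice farthest from the median of Angptl4. With the bright end removed it was 0.798, with the median signal removed 0.738 and with both removed 0.744. For both genes, mice numbered 2 were above and mice numbered 3 below their group mean in every group. How far the correlation rests on the replicate number was not tested. Angptl4 was tested against the members after its place among the genes most like Ucp3 had been seen, so the p is not independent of that choice. The correlations of Angptl4 with the other members were 0.484 for Pdk4 and 0.425 for Ppargc1a, and between -0.24 and 0.22 for the rest, and none of these passed (smallest adjusted permutation p = 0.0605).

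**Figure D5:**
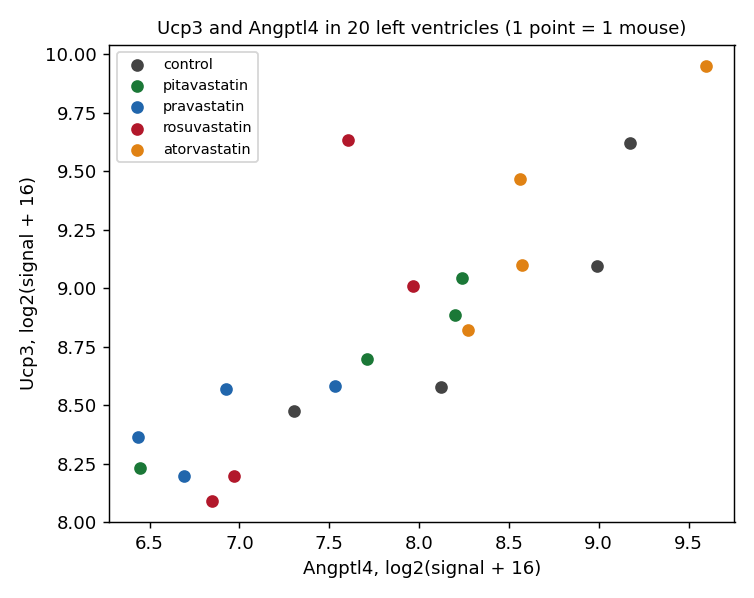
Ucp3 against Angptl4 in 20 mice, both as log2(signal + 16), coloured by group. Within groups the correlation is 0.802, with pravastatin mice at low values of both genes and atorvastatin mice at high values.

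Across 11222 tested genes outside the members, those most like each member between mice (within-group Pearson r over 20 mice that share 1 array platform and scaling) were Rilpl1 (0.950), Rragd (0.948), Selenop (0.936) and Ivns1abp (0.933) for Pdk4. For Ucp3 they were Zmym4 (0.897), Bod1l (0.807), AI987944 (0.807) and Angptl4 (0.802). For Acot1 they were Vezf1 (0.927), Casc3 (0.90), Wasf2 (0.891) and Tgfbi (0.881). Ppara was followed by Mtor (0.851), Ube2z (0.808), 1110004F10Rik (0.803) and Ncbp2 (0.795), and Ppargc1a by Dennd6a (0.894), Epha4 (0.886), Ddx6 (0.882) and Flcn (0.871). The 4 genes like Pdk4 correlated with the log2 median signal of the array at 0.61 to 0.83, as Pdk4 itself did at 0.736, whereas the 4 like Ppargc1a did so at 0.06 to 0.25.

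Among 16 tested paralogs of the members, limma called 0 with each statin, and 2 had an unadjusted p under 0.05 in 1 comparison each. These were Cpt1a, the carnitine palmitoyltransferase best known from liver, and Slc25a27, a brain relative of the uncoupling proteins. Cpt1a was at 10.58 ± 0.38 with atorvastatin against 10.10 ± 0.58 in control (SD, n = 4; 0.48, limma adjusted p = 0.964). Slc25a27 was at 6.99 ± 0.59 with rosuvastatin against 7.90 ± 0.52 (SD, n = 4; -0.91, limma adjusted p = 0.452). Ucp1, the uncoupling protein of brown fat, was too dim to be tested, with group means of 5.28 to 5.83. Of receptors and coregulators that act with PPARA, 19 were tested and 0 were called by their brightest probe set. The single probe set called by the F test over all groups was a dimmer one of Med1, a Mediator subunit on that list (F = 20.8, adjusted p = 0.0209), while its brightest probe set had an adjusted p of 0.939.

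All 10 cardiomyocyte markers were bright enough to be tested, as were all 9 macrophage, 5 fibroblast and 5 endothelial markers. The 4 white adipocyte markers with a probe set were not. Of the 4 brown adipocyte markers 2 were tested, Cidea and Dio2, while Ucp1 and Elovl3 were too dim. The log2 of the summed signal of these 4 ran from 9.48 to 10.09 in control and was highest in rosuvastatin 3 (10.41), with the other rosuvastatin mice at 9.51 to 9.63 and the atorvastatin mice at 9.21 to 9.51. Rosuvastatin 3 also had the highest sum of the 5 fibroblast markers (14.24, control 13.93 to 14.04). Of the 8 skeletal muscle markers 2 were tested, and the log2 of the summed signal of the list was high in pitavastatin 2 (12.87) and rosuvastatin 3 (13.21) beside a control range of 11.80 to 12.13. The same measure of the cardiomyocyte markers ran from 18.32 to 18.60 in control, 18.46 to 18.68 in pitavastatin and 18.15 to 18.63 in pravastatin mice, and more widely in rosuvastatin (17.76 to 18.88) and atorvastatin mice (17.73 to 18.95). The median signal of an array ran from 41.7 in rosuvastatin 3 to 144 in atorvastatin 2, and 56.6% of the variance fell on the first principal component. The part of these measures in the member values was not tested beyond the correlations and covariate fits given here. Precision is limited by the number of arrays, the median 95% interval for a statin against control reaching 0.36 to either side on the log2 scale.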

How the data were processed

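The deposited values are probe set signal intensities on a linear scale, which the authors computed with MAS5 per the submitters' processing notes, with no version given; every array had a trimmed mean of 500. Per the labels' protocols, cDNA was amplified from 100 ng of RNA and hybridized to Affymetrix whole-genome mouse arrays, and GeneSpring was named for the authors' analysis. From the deposited intensities, log2(signal + 16) was taken, and the 64 control probe sets were left out. The brighter 50% of the other 45037 probe sets by mean log2 value over the 20 arrays were kept (signal 81.8 and above). A gene was represented by its brightest probe set of 1 symbol.

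Groups were compared with limma 3.58.1 in R 4.3.3, with 1 mean per group over all 20 arrays and a trend in the prior (15 residual and 4.23 prior degrees of freedom). Adjusted p-values are Benjamini-Hochberg values over all tested probe sets, and calls were made at 0.05. Correlations used values minus the group mean, with 100000 permutations of mice within groups. The limma fit and the correlation test were first tested on simulated data. The simulation held no variation shared across an array, so it does not show how the tests behave where there is such variation. Samples of a group are separate mice per the labels.

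Named genes were all members, Angptl4, the 2 genes of each other list with the smallest p and the 4 genes most like each of 5 members. Med1 was named outside this rule after its value was seen. The members, lists and tests were chosen with earlier results of these data known. Alternatives were quantile normalization, median centring, pseudocounts of 1 and 64, no filter, the brightest 30%, no trend, array weights, a replicate block, only the groups compared, 1 probe set per gene, the log2 median signal or the bright end as a covariate, exact permutation, and leaving out arrays. Symbols come from the platform annotation, and promoters and positions from RefSeq (GRCm38.p6). Probe sets and members that could not be named by 1 symbol were not analysed here.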

Additional observations from a re-analysis of the deposited data

Results flagged for a closer look

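Of 80 combinations of 16 member probe sets and 5 groups, 4 held a mouse that stood apart from the other 3 of its group by Dixon's test. Chance flags about 1 in 20 groups. Pitavastatin 1 was high for the brightest Ppargc1a probe set, at 12.94 on the log2 scale against 12.48 to 12.56 in the other mice of its group. Pitavastatin 2 was low for the dimmest Ppargc1a probe set, at 9.60 with its nearest neighbour at 9.73. Control 3 was low for the Ppargc1a probe set with a mean signal of 1009, at 9.91 with its nearest neighbour at 10.08. Pitavastatin 3 was low for the dimmer Acot2 probe set, at 7.02 with its nearest neighbour at 7.51. The flagged mice differed between the Ppargc1a probe sets.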

How the results depend on the processing

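In each statin comparison 0 member probe sets were called under all 15 other settings and in all 20 omissions of 1 array. The same held in the mean and F comparisons under 13 settings and 20 omissions. Among the settings of the statin comparisons, the exact permutation could not have called any. Few probe sets of any kind were called, so 0 members is close to the share of all. Over the omissions at most 0, 23, 17 and 18 of 22518 were called with pitavastatin, pravastatin, rosuvastatin and atorvastatin, and 49 in the F test. Array weights gave 16 with pravastatin, 12 with rosuvastatin and 185 in the F test. The smallest adjusted p of any member was 0.114, that of Acot1 in the F test with the replicate block (0.731 without it). Of 35 fold changes (7 genes, 5 comparisons), 14 kept their sign in every setting. The number of correlated pairs was the result that moved: 4 as measured, 6 with each array centred on its median (3 of them called as measured), 1 after quantile normalization, 0 with the mean of all probe sets of a gene, 0 with the bright end removed (added after seeing the data), and 1 to 4 over the 20 omissions. The sign turned for Pdk4 with Fabp3 after quantile normalization (-0.0415) and with the bright end and median signal both removed (-0.0498), and for Acot2 with Fabp3 in the latter setting (-0.0888). The cause was not tested, and removing the bright end cannot test it for Fabp3, which followed the bright end too closely. Over all tested probe sets the replicate numbers did not meet the measure of pairing used here, a correlation over 0.1 in every same-number pair: over 40 same-number pairs the median correlation was 0.08 (-0.54 to 0.69), 19 were over 0.1, and 9 of 20 arrays correlated best with their own number. Some members nevertheless went with the number. For 6 of the 7 genes at least 1 number lay on one side of its group mean in all 5 groups (40.9% of all tested probe sets), and for 4, Ucp3, Acot1, Fabp3 and Ppargc1a, at least 2 did (9.33%). Acot1 was above in number 1 (0.04 to 0.63) and below in number 4 (-0.38 to -0.22), and Ppargc1a above in number 1 (0.08 to 0.31) and below in number 3 (-0.40 to -0.06). This pattern was looked for after it had been seen. A replicate block gave 0 member calls and 3 correlated pairs; Acot1 with Fabp3 was lost (-0.391), and Acot1 with Ppargc1a went from 0.525 to 0.001. Dim probe sets, such as the second of Ucp3 at a mean signal of 84.2, lie near the filter and are less sure.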

Other observations

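Fasting also raises genes through FOXO factors and the glucocorticoid receptor, and 14 of 15 such genes were tested. Limma called 0 with each statin and 0 had an unadjusted p under 0.05. Below control lay 10, 7, 4 and 7 of the 14 with pitavastatin, pravastatin, rosuvastatin and atorvastatin. The smallest p values were those of Ddit4, an inhibitor of mTOR signalling, and Tsc22d3, a classic glucocorticoid target. Ddit4 was at 11.31 ± 0.12 with pravastatin against 10.97 ± 0.28 in control, and Tsc22d3 at 11.15 ± 0.20 against 10.97 ± 0.16 (SD, n = 4; limma adjusted p = 0.992 for both).

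Among the receptors and coregulators, the 2 genes with the smallest p were Lpin1, a phosphatase that also acts as a PPARA coactivator, and Crebbp, a histone acetyltransferase. Lpin1 was at 11.97 ± 0.19 with atorvastatin against 12.29 ± 0.14 in control (SD, n = 4; -0.32, limma adjusted p = 0.964). Crebbp was at 12.36 ± 0.13 against 12.10 ± 0.24 (SD, n = 4; 0.26, limma adjusted p = 0.964). Median differences of this list lay between -0.02 and 0.03 with the 4 statins.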
